A study of Mus musculus with 54 samples.

Results

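The genes of the cytosolic ribosome were followed through 3 brain regions of mice with 1 trapped copy of Mbd5 (Mbd5+/GT) and of their wild-type (WT) littermates. They were taken by symbol, as protein-coding genes named Rpl or Rps with a number, together with Rplp0, Rplp1, Rplp2 and Rpsa and without the Rps6k kinases. The rule found 82 genes among the 47069 genes of the count table, 51 of the large subunit and 31 of the small subunit. Of these, 80 passed the filter on low counts, which asked for over 4 counts in 8 or more libraries. The remaining 2 were paralogs, Rpl10l, with 0 counts in every library, and Rpl39l, with at most 6 counts in a library.

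PolyA RNA was sequenced from 18 mice aged 8 weeks, with 1 striatum, 1 cortex and 1 cerebellum library from each. Of the mice, 10 were heterozygous for the gene trap B6;CB-Mbd5Gt(pU-21B)205Imeg (Mbd5+/GT) and 8 were WT littermates, all on a C57BL/6 background. The trap lies in an intron of Mbd5, a gene for a methyl-CpG-binding domain protein, in every cell of the body, and leaves a hypomorphic allele. All 6 mice of litter 1 were female (3 Mbd5+/GT, 3 WT), all 5 of litter 2 were male (4 Mbd5+/GT, 1 WT), and the 7 of litter 3 included both sexes (3 Mbd5+/GT, 4 WT).

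Ribosomal proteins assemble with ribosomal RNA into the subunits that decode mRNA (small) and form peptide bonds (large). Most cells need them in equal amounts, and their genes are usually expressed at high and closely matched levels. Their mRNAs typically begin with a C followed by an unbroken run of pyrimidines, the 5′ terminal oligopyrimidine (TOP) motif, through which the kinase complex mTORC1 and the RNA-binding protein Larp1 control translation. In the brain, ribosomal protein mRNAs are made by neurons and glia alike.

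The bases around the annotated starts were read for the genes on which the results turn, because the TOP motif is what the family is known for. Each window is 30 bases from RefSeq on GRCm38.p6, 15 on each side of the start, written 5′ to 3′ on the strand of the gene, with its longest run of C and T in capitals. The first 3 genes have long runs, Rps2 was among those that differed most between regions, Rpl18 was the gene with both a nominal genotype difference in cortex and one in striatum, Rps15a, Rpl15, Rpl22 and Rpl7l1 varied least, and Rpl24 stood apart from the others.
Rpl7a (chr2:26910792-26910821, plus strand): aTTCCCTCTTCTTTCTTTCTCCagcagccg
Rpl15 (chr14:18270972-18271001, minus strand): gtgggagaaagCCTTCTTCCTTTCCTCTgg
Rpl13a (chr7:45128731-45128760, minus strand): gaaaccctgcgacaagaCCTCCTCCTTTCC
Rps15a (chr7:118116133-118116162, minus strand): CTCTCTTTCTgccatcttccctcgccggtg
Rpl18 (chr7:45718056-45718085, plus strand): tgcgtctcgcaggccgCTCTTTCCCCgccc
Rps2 (chr17:24720048-24720077, plus strand): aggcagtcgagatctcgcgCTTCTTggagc
Rpl22 (chr4:152325711-152325740, plus strand): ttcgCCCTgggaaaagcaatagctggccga
Rpl7l1 (chr17:46782642-46782671, minus strand): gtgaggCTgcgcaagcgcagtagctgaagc
Rpl24 (chr16:55966260-55966289, plus strand): agaaagCTgttgctaggaaacagactgggc

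The runs were 21 bases long in Rpl7a, 17 in Rpl15 and 13 in Rpl13a, and 2 in Rpl7l1 and Rpl24. Of the 62 ribosomal protein genes with an entry in the promoter table, 25 (40.3%) had a run of at least 8 pyrimidines in this window, against 11.9% of the 27025 genes of the table. The first transcribed base was annotated as C in 20 (32.3%), against 16.2% of all genes. The median longest run was 6 bases, against 4. Annotated starts can lie some bases away from the start used in these tissues, and no reads were available to place them.

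Promoters of the same genes, 300 bases from 250 before to 50 after the start, were searched on both strands for fixed words. The core of the ETS-family site, CTTCCG, occurred in 41 of the 62 (66.1%, against 17.2% of all promoters), and the GC box GGGCGG in 37 (59.7% against 35.9%). No word contains another. The YY1-type word AAGATGGC was in 5 (8.06% against 2.88%). TATAAA was found in 6 (9.68% against 14.2%) and CCAAT in 19 (30.6% against 37.9%). The letters are a description of these windows and were not tested as binding sites.

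How well a ribosomal protein gene can be counted depends on its copies, since the mouse genome holds many processed pseudogenes of this family and reads that aligned to more than 1 place were not counted. Of all 50-base windows along the exons of a member, a median of 53.9% occurred with the same letters in an annotated transcript of another gene, and 45 of the 82 genes had over 50% of their windows shared. With windows of 75 bases the median was 47.9%. Transcripts of genes that overlap a member were counted here as well as copies, as with Gm28037 for Rpl24. These values are therefore not a measure of copies alone. Rps27 shared 98.6% of its windows, with the retrogene Rps27rt among others, and Rpl3l and Rpl39l shared 0%. The 267 annotated pseudogenes named for members took reads equal to 0.263% to 0.406% of the members' own reads per library. Copies under other names are not among them. Since reads shared with a copy are not counted, this value cannot show how many reads were lost. The level of a member is therefore less certain than its difference between libraries, in which the same positions are lost. In addition, 38 members overlap exons of another gene, 11 of them over more than 20% of their exon length, led by Rpl35 (66.2%), Rpl23a (62.3%) and Rpl24 (47.0%). Which strand the counts refer to is not given in the sources used here, so these values are uncertain.

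Library sizes ran from 25295973 to 49027399 reads on genes, and synthetic ERCC spike-ins took 0.0207% to 0.728% on top. Mbd5 itself was lower in Mbd5+/GT mice in the mean of each region, with overlapping ranges: 42.3 ± 10.9 CPM (counts scaled to a common library size; SD, n = 10) against 55.0 ± 10.8 (n = 8) in cerebellum, 46.0 ± 4.44 against 65.9 ± 9.55 in cortex and 36.1 ± 5.01 against 48.1 ± 8.49 in striatum. No libraries of a group were duplicates, since the closest pair differed by a chi-square of 8.33 per gene. In 4 libraries the summed neuron markers of the labelled region were under 1/3 of the median of that region, which was 6456 for 7 cerebellar and 3598 for 8 striatal markers, here in CPM of the raw library total, without the TMM factors applied to all other CPM. These were the cerebellum of Mbd5+/GT mouse M755 (192) and WT mouse M754 (1990), and the striatum of WT mice M754 (294) and M761 (766.9). Both cerebellum libraries were also high in 5 oligodendrocyte markers (30455 and 18227 on the same scale). The tests of region, genotype, litter and sex were also run without these 4 libraries. In bulk tissue, fewer cells of a type and less RNA per cell cannot be told apart.

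Ribosomal protein mRNAs were abundant and unequal in level. On the scale of CPM per kilobase of exon, as the mean of the 3 regions in WT mice, the median member stood at 76.4, against 2.94 for the 20369 genes tested that had a length. Large-subunit members had a median of 83.3 and small-subunit members of 75.6. In all, 26 members exceeded 100 and 78 exceeded 1.

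The highest level per kilobase belonged to Rplp1, a protein of the acidic stalk that recruits translation factors to the large subunit. It reached 385 ± 94.2 CPM per kilobase in cerebellum, 631 ± 125 in cortex and 1083 ± 204 in striatum (SD, n = 8 WT mice each), and 700 as the mean of the regions. Rps15, Rps29, Rpl4 and Rpl38 followed with 424, 261, 240 and 213. At the lower end stood Rpl7l1 (13.0), Rpl24 (0.509), Rpl3l (0.368), Rpl39l (0.0666) and Rpl10l, which had no read. The value of Rpl24 is uncertain because of its overlap and shared windows. With the longest transcript in place of all exons, 7 of the 10 highest members were the same.

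The paralogs of the family were lower than their partners per kilobase, but to very different degrees. Rpl3l, which stands in for Rpl3 in striated muscle, was at 0.368 where Rpl3 was at 129. Rpl39l, known from the testis, was at 0.0666 where Rpl39 was at 40.1. Rpl7l1, a homologue of Rpl7 best known from ribosome assembly, stood at 13.0 against 93.4, and Rps27l, a p53 target, at 14.7 against 127 for Rps27. Rpl22l1 was the closest to its partner, at 32.3 against 35.7 for Rpl22. Partners also differed in the share of 50-base windows that occur in other transcripts. It was 65.6% for Rpl22l1 and 24.5% for Rpl22, and 22.4% for Rps27l and 98.6% for Rps27. The comparison of levels between partners is uncertain to that extent.

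**Figure D1:**
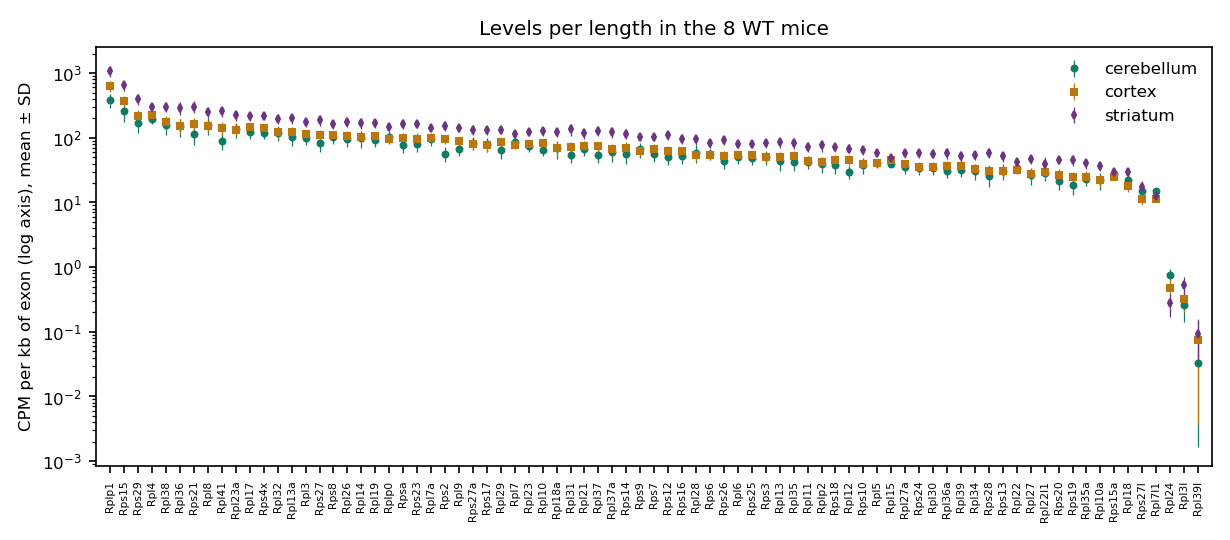
Level per length of the ribosomal protein genes in WT mice, ordered by the mean over regions, with CPM per kilobase of exon on a log axis and bars of 1 SD over 8 mice. Rplp1 stands at the top at 700 and Rpl24, Rpl3l and Rpl39l lie under 1. The lower bar of Rpl39l is cut because a log axis has no 0, and Rpl10l, at 0, and 2 other members are not drawn.

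Within each region the members varied together from library to library, with 1 library from each mouse. The correlation of a member with the mean of all other members over the 18 libraries of a region had medians of 0.979, 0.952 and 0.949 for cerebellum, cortex and striatum (Pearson's r of log2 CPM). It exceeded 0.8 for 76, 74 and 73 of the 80 members, against 9.48%, 3.04% and 4.94% of all genes tested. Between pairs of members the median r was 0.957, 0.893 and 0.894. These points share library, depth and normalisation, and the values are a description.

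A few members did not follow. Rpl24, a large-subunit protein, had r = 0.15 in cerebellum, −0.38 in cortex and −0.42 in striatum. For Rpl3l these values were 0.16, 0.40 and 0.52. Both were at the bottom of the counts. Rpl24 collected 5 to 57 reads per library and 950 over all 54 libraries. It overlaps the gene Gm28037 and shares 81.7% of its windows with other transcripts, those of Gm28037 among them. Its level is therefore the least certain of the tested members.

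The genes outside the family whose profile was most like the mean of the members differed by region. In cerebellum they were Pfdn5 (r = 0.996), a prefoldin chaperone subunit, Ndufa3, Atp6v1f, Ndufa2 and Uqcc2. In cortex Ndufb11 led (r = 0.980), followed by Cox7a2l, Ndufs6, Use1 and 1500009C09Rik. In striatum Use1 (r = 0.983) and Pfdn5 were followed by Fau and Rack1, which are themselves ribosomal components outside the naming rule, with Supt4a in between. Ndufa2, Ndufa3, Ndufb11 and Ndufs6 encode subunits of the mitochondrial respiratory chain.

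**Figure D2:**
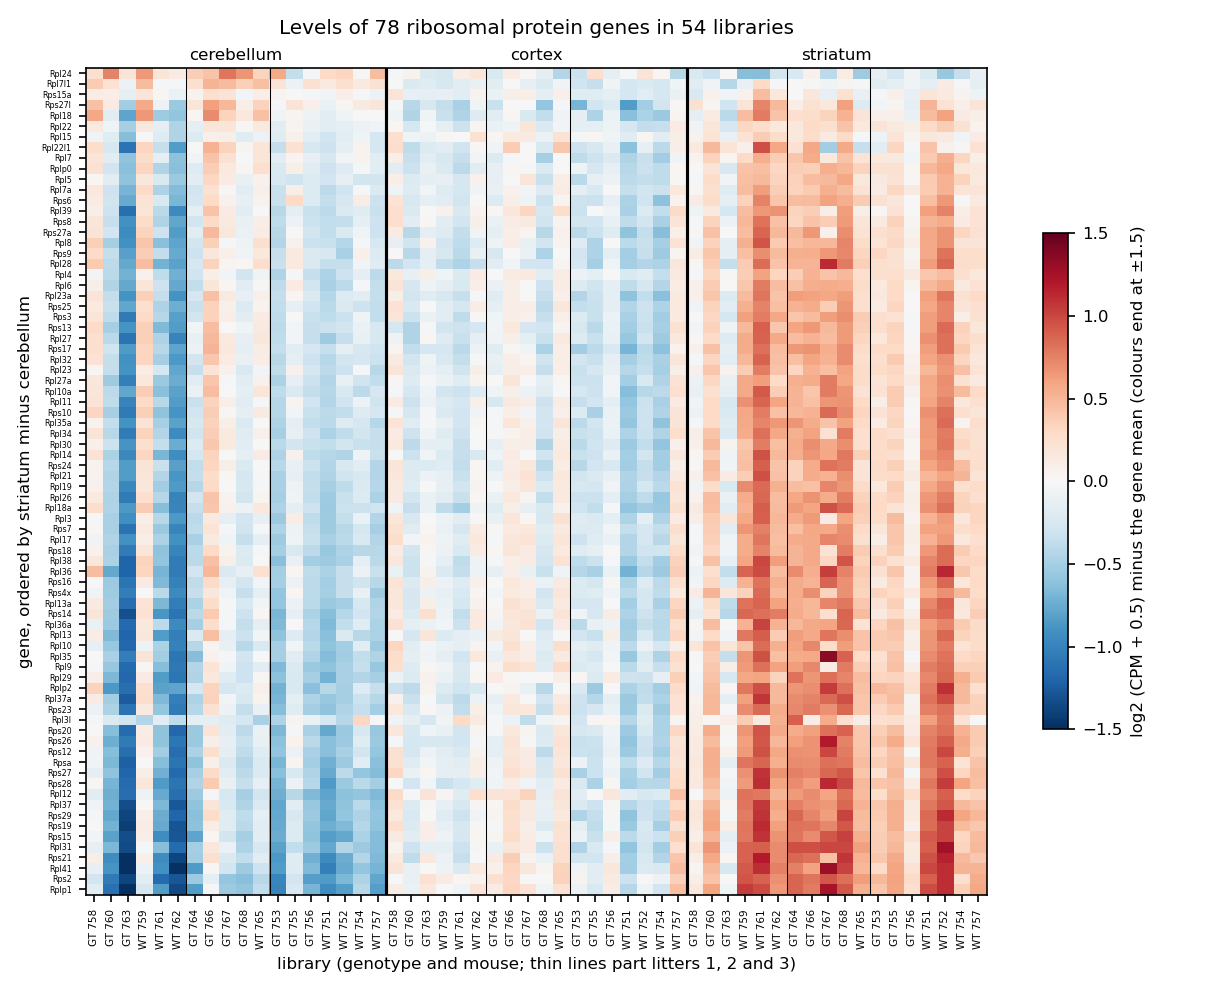
Level of 78 of the 80 tested members (rows), as log2 of CPM plus 0.5 minus its mean over all 54 libraries, in the libraries (columns) grouped by region, litter and genotype (GT, Mbd5+/GT). Columns are mostly of 1 colour from top to bottom, with Rpl24 and Rpl3l as exceptions, and colours end at ±1.5.

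Taken as 1 quantity, the summed reads of the members were 0.587% to 1.48% of a cerebellum library (median 0.945%), 0.805% to 1.38% of a cortex library (1.09%) and 1.20% to 2.33% of a striatum library (1.67%). The means were 1.02 ± 0.250%, 1.10 ± 0.180% and 1.67 ± 0.296% (SD, n = 18 each). Counting error was small against this spread, since the 95% Wilson interval of the lowest cerebellum library ran from 0.584% to 0.590%. Such intervals cover counting error only. The ranges of striatum and cerebellum, and of striatum and cortex, overlapped. Spike-ins took 0.0207% to 0.193% in cerebellum libraries, 0.0449% to 0.251% in cortex libraries and 0.0920% to 0.728% in striatum libraries. What this difference in spike-ins has to do with the region values was not tested.

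Striatum had a higher share than cortex and than cerebellum in 17 of the 18 mice, the exception in both being Mbd5+/GT mouse M758, with 1.36% in cerebellum, 1.37% in cortex and 1.29% in striatum. Cortex was above cerebellum in 12 of 18. The highest share of all, 2.33%, was in the striatum of WT mouse M761, 1 of the 4 libraries low in their own markers. The lowest in cerebellum (0.587%) and the lowest in striatum (1.20%) both came from Mbd5+/GT mouse M763. The number in the code of the library's title, which the labels do not explain, ran from 1 to 7 and was tied to region, with 1 to 3 in striatum, 3 to 5 in cerebellum and 5 to 7 in cortex. Within cerebellum the 4 libraries with number 5 had a mean share of 0.734%, against 1.05% for number 3 and 1.15% for number 4. Within number 3 the 2 striatum libraries had shares of 1.20% and 1.81% and the 6 cerebellum libraries 0.856% to 1.48% (mean 1.05%). Within number 5 the 4 cortex libraries had 0.805% to 1.13% (mean 0.978%) and the 4 cerebellum libraries 0.587% to 0.862%. Both pairs kept the order of the region means with overlapping ranges, and striatum and cortex shared no number.

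**Figure D3:**
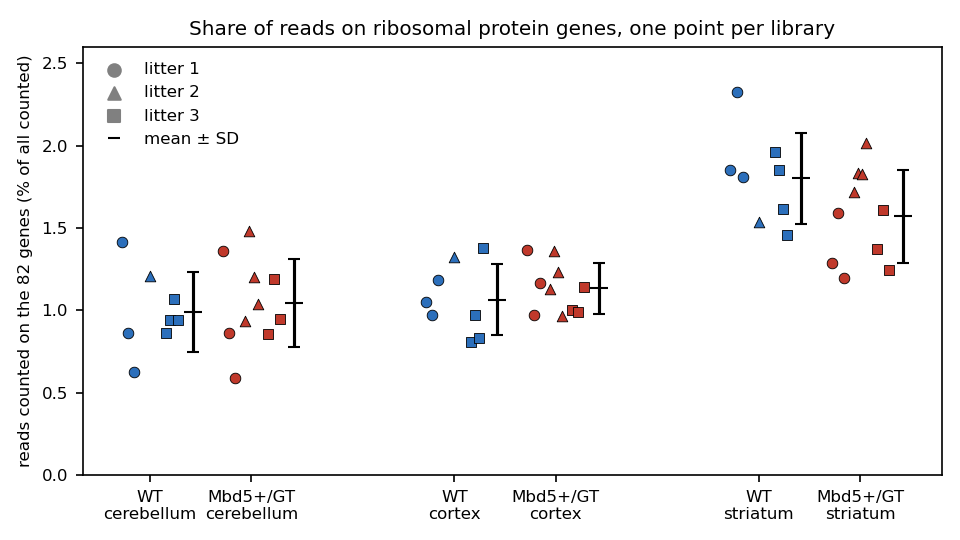
Share of counted reads on the 82 members in each library, in percent, by region and genotype, with litter by marker and bars for the mean ± SD of each group. Striatum libraries lie between 1.20% and 2.33%, mostly above those of cortex (0.805% to 1.38%) and cerebellum (0.587% to 1.48%).

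Between regions, members were higher in striatum than in either other region. In the fit over all 54 libraries, with edgeR's quasi-likelihood test and Benjamini-Hochberg adjustment over 20477 genes, 75 of 80 members were higher in striatum than in cerebellum at an adjusted p under 0.05 and 2 were lower. Of all genes, 75.2% were called in this comparison, 37.3% as higher and 38% as lower. The median log2 difference of the members was 0.69, against 0.00 for all genes. Between cortex and striatum, 78 members were lower in cortex and 1 was higher, where 58.9% of all genes were called, 28.9% as lower and 30.1% as higher, and the members' median was −0.57. Between cortex and cerebellum 31 were higher and 6 lower, where 68.9% of all genes were called, 33.3% as higher and 35.5% as lower, and the median was 0.11. Without the 4 libraries low in markers 77, 78 and 39 members were called in the 3 contrasts in the same order, where 76.4%, 60.8% and 71.2% of all genes were.

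The largest difference was that of Rplp1 of the stalk. It had 107, 183 and 307 CPM as lowest, median and highest value of the 18 cerebellum libraries, 231, 321 and 423 in cortex and 295, 477 and 730 in striatum. Striatum and cerebellum overlapped only at their edges, and the log2 difference was 1.36 (SE 0.11, adjusted p = 1.59e-15). The cortex lay between them, 0.69 above cerebellum (SE 0.11) and 0.67 below striatum on the log2 scale.

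Rps2, a small-subunit protein at the mRNA entry channel, was at 63.8, 106 and 151 CPM in cerebellum, 133, 171 and 213 in cortex and 166, 262 and 359 in striatum. Every striatum library was above every cerebellum library, and the log2 difference was 1.32 (SE 0.10, adjusted p = 5.93e-17). Between cortex and cerebellum Rps2 also had the largest increase, 0.73. Of all members only Rps2 and Rpl10, a late-joining protein of the large subunit, had no overlap between striatum and cerebellum, where 5.35% of all genes were separated in this direction. Without the 4 libraries low in markers, Rpl3l joined them, where 10.8% of all genes were separated. No member had all striatum libraries above all cortex libraries, as 0.117% of all genes did, or all cortex libraries above all cerebellum libraries, as 7.89% did.

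Rpl41, the smallest ribosomal protein, rose from 55.2, 105 and 173 CPM in cerebellum to 143, 257 and 412 in striatum, a log2 difference of 1.30 (SE 0.12). Rps21 rose from 46.5, 92.5 and 165 CPM to 142, 207 and 319, by 1.18 (SE 0.13). Both ranges overlapped between the regions. In cortex against cerebellum, Rplp1, Rpl41 (0.64) and Rpl12 (0.61), a protein at the base of the stalk, followed Rps2. Against striatum the largest decreases in cortex were those of Rpl31 (−0.83, SE 0.11), which sits near the exit of the peptide tunnel, Rplp2 (−0.80), the partner of Rplp1, Rps28 (−0.79) and Rpl37a (−0.75).

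The members that did not share the striatal excess were few. Rps15a, a small-subunit protein, had lowest, median and highest values of 152, 172 and 199 CPM in cerebellum, 139.5, 154 and 193 in cortex and 144, 175 and 232 in striatum. Its log2 difference between striatum and cerebellum was 0.02 (SE 0.05, adjusted p = 0.726). Rps27l (0.06, SE 0.10, adjusted p = 0.579) and Rpl18 (0.19, SE 0.10, adjusted p = 0.0843) did not pass the test either.

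Among those that did, Rpl22 was at 73.1, 97.9 and 118 CPM in cerebellum and 87.0, 118 and 139 in striatum, a log2 difference of 0.25 (SE 0.06). Rpl15, with its long pyrimidine run, was 0.30 higher (SE 0.05) in striatum than in cerebellum. It was also the only member not called between cortex and striatum (−0.11, SE 0.05, adjusted p = 0.0790), with 97.0, 111 and 131 CPM in cortex and 101, 122 and 143 in striatum.

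Rpl7l1 and Rpl24 went the other way. Rpl7l1 had 41.8, 52.3 and 63.8 CPM in cerebellum, 35.0, 39.3 and 44.7 in cortex and 33.1, 42.9 and 55.0 in striatum. It was 0.41 lower in cortex (SE 0.05, adjusted p = 2.14e-09) and 0.29 lower in striatum (SE 0.05) than in cerebellum on the log2 scale, and its call between cortex and striatum (−0.12, adjusted p = 0.0487) was lost without the 4 libraries low in markers (adjusted p = 0.111). Rpl24 had 0.313, 0.804 and 1.32 CPM in cerebellum and 0.166, 0.382 and 0.626 in striatum, a log2 difference of −1.21 (SE 0.16), and was also 0.48 higher in cortex than in striatum, at the low counts named above. Rps27l and Rpl18 were lower in cortex than in cerebellum, with log2 differences of −0.44 (SE 0.10) and −0.33 (SE 0.10).

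**Figure D4:**
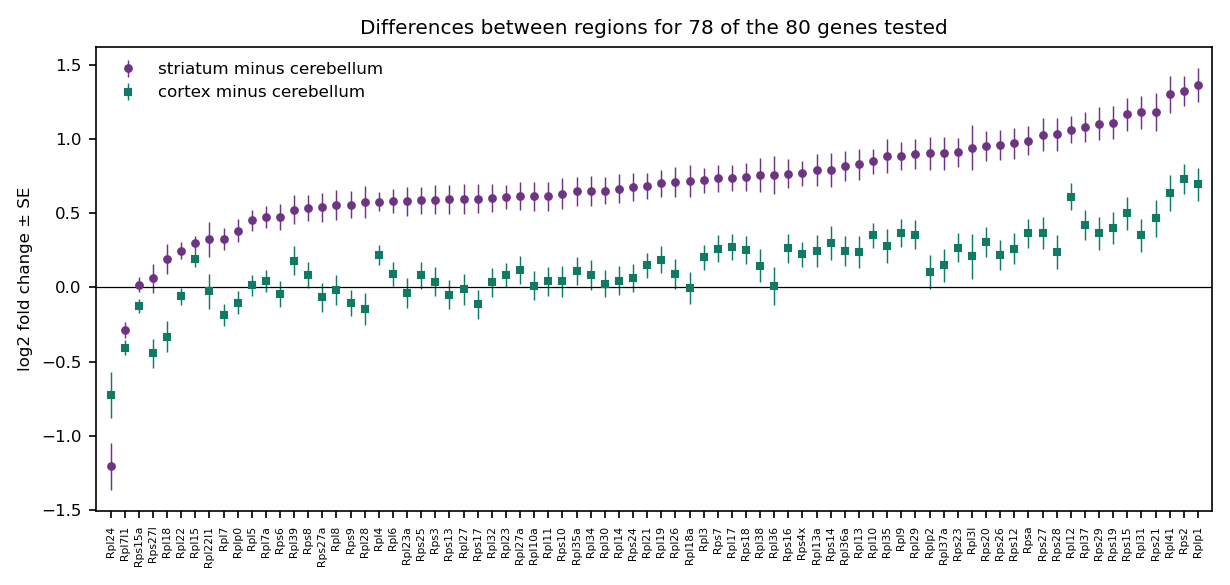
Log2 difference of 78 of the 80 tested members between striatum and cerebellum (circles) and between cortex and cerebellum (squares), with bars of 1 SE from the fit over 54 libraries, members in order of their difference between striatum and cerebellum. The points run from −1.21 (Rpl24) to 1.36 (Rplp1) for striatum and from −0.73 (Rpl24) to 0.73 (Rps2) for cortex.

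Paralogs and their partners were set side by side in the regions. Rps27 was 1.03 higher in striatum than in cerebellum on the log2 scale (SE 0.11), where Rps27l was 0.06 higher. Rpl7 was 0.33 higher (SE 0.07), where Rpl7l1 was 0.29 lower. Rpl22 and Rpl22l1 had similar values, 0.25 and 0.32 (SE 0.06 and 0.12), as did Rpl3 and Rpl3l, 0.72 and 0.94 (SE 0.08 and 0.15). The differences between partners were not tested. The X-linked members were all higher in striatum than in cerebellum, Rpl10 by 0.85, Rpl36a by 0.82, Rps4x by 0.77 and Rpl39 by 0.52.

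With each library scaled to the summed reads of the members, so that a difference is one within the family, the median of all genes shifted by −0.75 between striatum and cerebellum. Then 61 of 80 members differed between these regions (82.9% of all genes), 59 between cortex and cerebellum (67.8%) and 33 between cortex and striatum (73%). Relative to the family, Rplp1 (0.63), Rps2 (0.59), Rpl41 (0.57), Rps21 (0.47) and Rpl31 (0.44) were higher in striatum than in cerebellum, and Rpl7l1 (−1.04), Rps15a (−0.75), Rps27l (−0.67), Rpl18 (−0.53), Rpl22 (−0.50) and Rpl15 (−0.45) were lower. Rpl22 and Rpl15 thus changed direction with the scaling. The family's composition differed least between cortex and striatum, where Rpl15 (0.45), Rpl7l1 (0.44) and Rps15a (0.41) were relatively higher in cortex and Rpl31 (−0.26) relatively lower, apart from the low counts of Rpl24.

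Transcript length and the share of shared windows were set beside these differences. Across the 80 members, Spearman's rho of transcript length with the difference between cortex and striatum was 0.27, against 0.32 across 20369 genes, and with that between striatum and cerebellum −0.11, against −0.17. The share of shared windows had rho = −0.01 with the difference between striatum and cerebellum. Genes are not independent replicates, and these values are a description. The part of transcript length in the difference of the whole family between regions was not tested.

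Other genes of the translation machinery moved less uniformly. Of all 20477 genes, 7628 were called higher and 7776 lower in striatum than in cerebellum. In cortex 6158 were called higher and 5909 lower than in striatum, and 6828 higher and 7278 lower than in cerebellum. These are the background of the list counts here and in the next paragraph. Of 5 ribosomal protein genes outside the naming rule, 4 were higher in striatum than in cerebellum, among them Fau (0.72 on the log2 scale), which encodes Rps30 fused to a ubiquitin-like protein, and Rps3a1 (0.57), and all 5 were lower in cortex than in striatum. Of 21 translation factors and other genes with known TOP mRNAs, 12 were higher and 5 lower in striatum than in cerebellum, with a median of 0.18. The elongation factors Eef1a1 (0.85) and Eef1b2 (0.63) and the histone chaperone Nap1l1 (0.72) were higher, and the initiation factor subunits Eif2s3x (−0.69) and Eif3a (−0.46) lower. Between cortex and striatum 3 were higher and 15 lower in cortex (median −0.32), and between cortex and cerebellum 3 were higher and 7 lower (−0.05).

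Of 40 ribosome biogenesis genes tested, 14 were higher and 14 lower in striatum than in cerebellum (median −0.03), 9 higher and 17 lower in cortex than in cerebellum, and 8 higher and 20 lower in cortex than in striatum. The assembly ATPase Mdn1 (−0.80), the pseudouridine synthase Dkc1 (−0.75) and the RNA polymerase I subunit Polr1b (−0.67) were lower in striatum than in cerebellum. Of 21 genes of mTORC1 and TOP control, 4 were higher and 12 lower in striatum than in cerebellum (median −0.22). Myc (1.19) and Eif4ebp1 (0.69), an inhibitor of translation initiation, were higher, and Rps6kb1 (−0.89), the kinase of Rps6, Rptor (−0.26) and Larp1 (−0.22) lower. Between cortex and cerebellum 6 were higher and 8 lower, and between cortex and striatum 8 were higher and 4 lower. Glial markers also differed between regions. Of 5 oligodendrocyte markers, 4 were higher in striatum than in cerebellum (median 0.61) and 5 lower in cortex than in striatum (−1.20). Against cerebellum, 4 of the 5 were lower in cortex (−0.64). Of 4 astrocyte markers, 2 were higher and 1 lower in striatum than in cerebellum (−0.09). In cortex 1 was higher and 2 lower than in cerebellum (−0.37), and 2 higher and 1 lower than in striatum (0.22). Of 4 microglia markers, 4 were higher in striatum and in cortex than in cerebellum (1.86 and 1.81). The part of these in the ribosomal protein values was not tested.

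The question of the study was how reduced Mbd5 changes expression in each region. By the model with surrogate variables, 0 of 80 members had an adjusted p under 0.05 between Mbd5+/GT and WT mice in cerebellum, cortex or striatum with edgeR (0.00551%, 0.0107% and 0.00539% of all genes), and at an unadjusted p under 0.05 there were 1, 3 and 12. DESeq2 gave 0 as well (0.0165%, 0.332% and 0.0162% of all genes), with 1, 3 and 15 nominal (2.65%, 8.15% and 7.32%). In cerebellum the share was 1.05 ± 0.267% in Mbd5+/GT mice (n = 10) and 0.991 ± 0.241% in WT mice (n = 8). The single nominal member was Rplp2 (log2 difference −0.12, SE 0.05, p = 0.0244, edgeR adjusted p = 1.00), where 2.75% of all genes were nominal and 1.78% were lower. Without the libraries low in markers there was no nominal member (2.43% of all genes). The next in rank, Rps28 (0.09), Rps27 (0.07) and Rpl8 (−0.04), had p = 0.215, 0.377 and 0.384.

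In cortex the share was 1.13 ± 0.153% in Mbd5+/GT and 1.07 ± 0.214% in WT mice, and the median log2 difference of the members was 0.09. The 3 nominal members were higher in Mbd5+/GT mice, where 8.47% of all genes were nominal and 3.96% were higher. Among them were Rpl10a (0.13, SE 0.05, edgeR adjusted p = 0.507) and Rpl18 (0.14, SE 0.06, adjusted p = 0.513). Rpl13 (0.12, SE 0.06) was the highest in rank of those that were not nominal. This share of the members was close to the background, and with terms for litter and sex instead of surrogate variables the count was 0.

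In striatum the share was 1.57 ± 0.282% in Mbd5+/GT mice and 1.80 ± 0.275% in WT mice. The 12 nominal members were all lower in Mbd5+/GT mice, where 7.44% of all genes were nominal and 3.2% were lower, and the median of the 80 was −0.08. Without the libraries low in markers 17 were nominal, all lower (5.77% of all genes nominal, 3.84% lower), and without the 2 WT libraries labelled as repeats, both of litter 3, 10 were (5.6%). Rps14, a small-subunit protein at the decoding platform, had lowest, median and highest values of 131, 207 and 325 CPM in Mbd5+/GT mice and 197, 304 and 322 in WT mice. The ranges overlapped throughout, since the highest Mbd5+/GT library was above every WT library, and the log2 difference was −0.34 (SE 0.10, edgeR adjusted p = 0.629).

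The next were Rpl27, at 41.7, 59.5 and 74.8 CPM against 57.6, 70.8 and 89.0 (−0.19, SE 0.06), Rpl18, at 67.3, 95.5 and 129 against 94.7, 122 and 154 (−0.21, SE 0.06), and Rpl13a, at 211, 343 and 480 against 310.4, 436 and 509 (−0.23, SE 0.08), each at the same adjusted p of 0.629. Rpl18 was thus nominal with opposite signs in cortex and striatum. Its own test of a genotype difference that differs between the 3 regions gave p = 0.0755, and Rps14 gave 0.0535. In that test 0 of 80 members had an unadjusted p under 0.05 by edgeR and 1 by DESeq2, where 2.31% and 2.6% of all genes did. Without litter 2 it was 23 (3.09% of all genes). Of the lists, 0 TOP factors, biogenesis genes or mTORC1 genes had an adjusted p under 0.05 for genotype in any region by edgeR. At an unadjusted p under 0.05 in striatum there were 2 of 21, 3 of 40 and 1 of 21, against 1380 of all 18546 genes.

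The difference in striatum was not the same in each litter. In litter 1 the shares of Mbd5+/GT mice were 1.20%, 1.29% and 1.59% and those of WT mice 1.81%, 1.85% and 2.33%, without overlap. In litter 2 the 4 Mbd5+/GT mice lay between 1.72% and 2.01% and the single WT mouse at 1.54%, below all of them. In litter 3 Mbd5+/GT mice had 1.24%, 1.38% and 1.61% and WT mice 1.46% to 1.96%, with overlap.

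Per gene, 79 of 80 members were lower in Mbd5+/GT than in WT striatum within litter 1 (median log2 difference −0.52, where 47.1% of all genes were lower), 0 of 80 within litter 2 (0.29, 52.2%) and 79 of 80 within litter 3 (−0.28, 46.8%). Since members move together, these counts carry little more than the sign of the share. Without the striatum libraries of WT mice M754 and M761, the medians were −0.41 in litter 1 and −0.36 in litter 3, with 79 of 80 lower in each. For Rps14 the within-litter values were −0.94, 0.07 and −0.36, and for Rpl13a −0.83, 0.24 and −0.33.

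The genotype-by-litter terms, a test chosen after seeing the data, had an unadjusted p under 0.05 for 49 of 80 members in striatum, where 6.56% of all genes did, and the smallest adjusted p of a member was 0.715. In cortex and cerebellum 0 members were nominal by edgeR in this test, where 0.67% and 0.413% of all genes were. Their within-litter medians were smaller, 0.08, −0.17 and 0.04 in cortex and −0.04, −0.06 and 0.06 in cerebellum, for litters 1, 2 and 3.

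Without litter 2, 70 of 80 members were lower in Mbd5+/GT striatum at an unadjusted p under 0.05, where 19.8% of all genes were nominal and 9% were lower, with a median of −0.36 and 0 adjusted p under 0.05 (0% of all genes). Leaving out litter 2 removes the litter with the opposite direction, and members move together, so this count is not separate evidence. With litter and sex as covariates 39 were lower and 1 was higher (9.22% of all genes nominal, 3.63% lower), and without surrogate variables 6 were nominal (5.44% of all genes). Within the numbers of the title codes, the median was −0.03 for number 1 (5 Mbd5+/GT and 3 WT mice), −0.28 for number 2 (4 and 4) and −0.57 for number 3 (1 and 1).

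Spike-in and mitochondrial shares in striatum also had different means by genotype, without a test. ERCC spike-ins took 0.288 ± 0.216% of Mbd5+/GT and 0.462 ± 0.206% of WT striatum libraries, and mitochondrial genes 6.61 ± 0.798% and 5.67 ± 1.15%. By litter the means for Mbd5+/GT and WT mice were 0.112% and 0.434%, 0.447% and 0.515%, and 0.253% and 0.470% for spike-ins in litters 1, 2 and 3. For mitochondrial genes they were 7.20% and 5.51%, 6.57% and 4.25%, and 6.08% and 6.14%, so that litter 3 did not have the direction of the others. Summed striatal neuron markers had a median of 3093 CPM (1343 to 7772) in Mbd5+/GT mice and 3913 CPM (270 to 7979) in WT mice, with 0 of 8 nominal for genotype, and oligodendrocyte markers 11569 CPM (5307 to 16163) and 12200 CPM (6388 to 16004), with 0 of 5. The part of these in the genotype values was not tested.

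**Figure D5:**
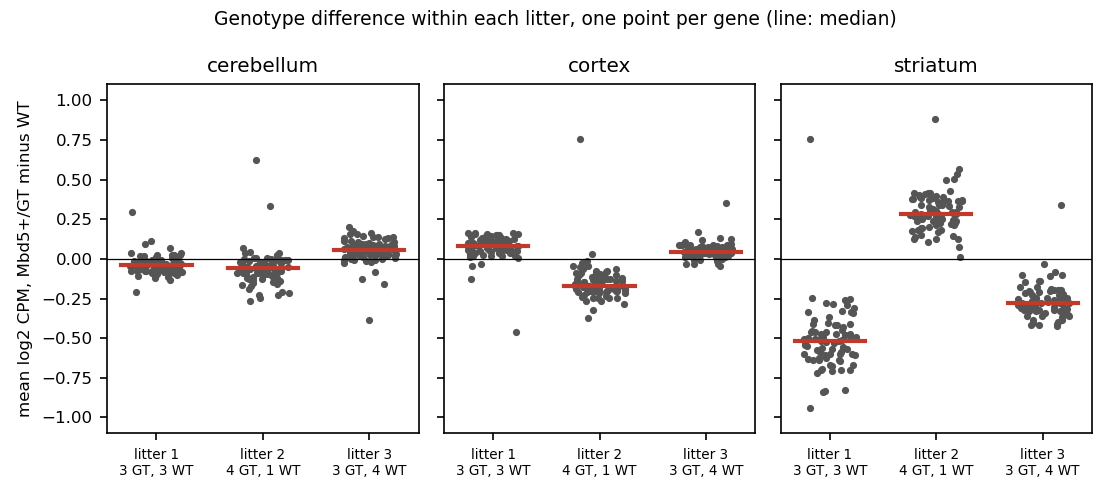
Log2 difference between Mbd5+/GT and WT mice for each of the 80 tested members within each litter and region, with the median marked. In striatum the members lie mostly below 0 in litters 1 and 3 (medians −0.52 and −0.28) and above 0 in litter 2 (0.29), whose WT group is 1 mouse.

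Differences between litters and sexes were tested in each region with both as covariates beside genotype. Sex was told from litter only through the 4 females and 3 males of litter 3, and in that litter it coincided with the number of the title code, which was 4 in female and 3 in male cerebellum libraries, 6 and 5 in cortex and 2 and 1 in striatum. In striatum all 8 males had number 1 and all 10 females number 2 or 3. Sex and number cannot be told apart in these fits. No member had an adjusted p under 0.05 for litter in any region by edgeR, as 0% of all genes had, and 1, 16 and 0 were nominal in cerebellum, cortex and striatum, where 15.6%, 7.9% and 5.68% of all genes were. DESeq2 also had no member after adjustment (1.51%, 0.305% and 0.0539% of all genes), and 0, 26 and 0 nominal (19.1%, 9.02% and 6.78%). The nominal member in cerebellum was not nominal without the libraries low in markers (1.66% of all genes nominal), and in cortex 0 were nominal by edgeR with sex left out of the fit.

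In cortex the nominal members included Rps27l (p = 0.0111), Rps29 (p = 0.0134) and Rps27 (p = 0.0184), each with an edgeR adjusted p of 0.615. Litter 2 was above litter 3, with 50 members nominally higher (9% of all genes nominal, 4.91% higher) and a median log2 difference of 0.36. The shares were 1.20 ± 0.159% in litter 2 (n = 5) and 1.02 ± 0.196% in litter 3 (n = 7) and overlapped. In cerebellum the nominal member was Rpl3l, at under 1 CPM, and in striatum the smallest p was 0.127, for Rps6, the substrate of S6 kinase.

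For sex, 0 members had an adjusted p under 0.05 by edgeR in any region (0.033%, 0.0482% and 0.0593% of all genes), and the nominal counts were 1, 8 and 5 (DESeq2 0 after adjustment, where 6.7%, 0.198% and 2.44% of all genes were called, and 1, 12 and 6 nominal, where 22.9%, 6.39% and 15.6% were). In cerebellum this was Rpl3l (0.95 higher in females, SE 0.31, adjusted p = 0.118), where 21.5% of all genes were nominal and 14.9% were higher. Without the cerebellum libraries low in markers, both female, 0 members and 2.03% of all genes were nominal. In cortex all 8 were higher in females, where 6.18% of all genes were nominal and 3.77% were higher, with Rps27l (0.55, SE 0.17, adjusted p = 0.646), Rps29 (0.41, SE 0.17) and Rpl10a (0.34, SE 0.14) first and a median of 0.23 over the members. The count was 1 in litter 3 only (2.93% of all genes), and 0 without the libraries of highest and lowest share (5.99%; median 0.02) or with litter left out of the fit (6.26%; median 0.02). In striatum all 5 were lower in females, where 14.6% of all genes were nominal and 6.07% were lower, with Rpl10 (−0.37, SE 0.15, adjusted p = 0.263), Rps6 (−0.37, SE 0.15) and Rpl31 (−0.47, SE 0.21) first and a median of −0.30. The count was also 5 without the libraries low in markers (13.8% of all genes), 27 in litter 3 only (14.1%), 31 without the libraries of highest and lowest share (17.4%) and 56 with litter left out (28.4%), when 4 also had an adjusted p under 0.05 by edgeR (8.84%).

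Within litter 3 alone, striatal shares were 1.24% to 1.62% in 4 females and 1.38% to 1.96% in 3 males, and 77 of 80 members were lower in females, with a median of −0.32. In cerebellum and cortex the medians were 0.19 and 0.19, with 76 and 79 members higher in females. Without the libraries low in markers the medians were −0.33 in striatum and 0.07 in cerebellum, with 77 members lower and 72 higher in females. Other genes moved too. All 5 oligodendrocyte markers were nominally higher in female cerebellum (median 1.60) and nominally lower in female striatum (−0.97), and striatal neuron markers had a median of −1.41 in female striatum, with 1 of 8 nominal. Of the 4 libraries low in their own markers, 4 came from females, 3 of them in litter 3, and the part of tissue content in the sex values was not tested.

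X-linked members had values inside the range of the others. Between females and males, Rpl10, Rpl36a, Rpl39 and Rps4x had log2 differences of 0.28, 0.34, 0.12 and 0.27 in cerebellum, 0.12, 0.37, 0.34 and 0.20 in cortex and −0.37, −0.22, −0.30 and −0.23 in striatum. Of these, Rpl10 in striatum and Rpl36a in cortex were nominal, and none passed adjustment.

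The spread between mice, after genotype, was given by the biological coefficient of variation from edgeR's dispersions. Its median over the members was 0.251, 0.157 and 0.196 for cerebellum, cortex and striatum, against 0.241, 0.171 and 0.221 for all genes tested and 0.180, 0.133 and 0.165 for genes at the same range of levels. The least variable were Rps15a, Rpl15 and Rpl7l1 in cerebellum and cortex and Rpl15, Rpl7l1 and Rpl22 in striatum. The most variable were Rps21 (0.328), Rpl36 (0.323) and Rpl24 (0.308) in cerebellum, Rpl24 (0.217), Rpl3l (0.208) and Rps27l (0.191) in cortex and Rpl3l (0.285), Rpl35 (0.277) and Rpl41 (0.262) in striatum.

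Across all 54 libraries, region took a median of 53.6% of a member's sum of squares in log2 CPM, mouse 17.1% and the rest 29.1%. For all genes the parts of region, mouse and rest were 45.2%, 18.3% and 33.8%. These parts were not corrected for degrees of freedom. The 18 mice take a part even where mice do not differ, so a mouse effect cannot be read from it. Rps2 (77.2%) and Rplp1 (74.0%) had the largest share by region, and Rpl22l1 (16.2%) and Rps15a (17.2%) the smallest.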

How the data were processed

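PolyA RNA of 3 brain regions of 18 mice was sequenced, 54 libraries in all. The authors aligned the reads with STAR 2.4.2 after FastQC 0.10.1 to GRCm38 with Ensembl annotation and deposited raw whole-number counts, made with the GeneCounts option of STAR, in which reads aligned to several places or to exons of more than 1 gene are not counted. The strand column kept is not given in the sources used here. Region, genotype, litter, sex and mouse came from the labels, and every column was used. The titles of the striatum libraries of WT mice M751 and M752 hold the label rep, which was read as a repeat. Both entered all main tests, and the genotype and region tests were also run without them. ERCC spike-ins (92 rows) entered neither library sizes nor tests.

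Counts were normalised by TMM in edgeR 4.0.16 (R 4.3.3), and CPM are TMM-normalised over all 54 libraries. Genes that had over 4 counts in 8 or more libraries were tested by edgeR's quasi-likelihood F test with robust dispersions, and p-values were adjusted by the Benjamini-Hochberg method over all genes tested in a comparison. Genotype was tested within a region with 2 (cerebellum) or 4 (cortex, striatum) surrogate variables from sva 3.50.0, as many as in the study. Litter and sex were tested with genotype as a covariate, and region on all libraries as the mean over genotypes. The SE of a log2 difference was taken as its absolute value over the root of F. Nominal means an unadjusted p under 0.05. Alternatives included DESeq2 1.42.0, other filters, covariates and scalings. The script was tested on simulated data.

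The mice are the replicates. Each mouse gave all 3 of its libraries, which pairs the regions, and the median correlation of their deviations from group means was 0.16 between cerebellum and cortex, 0.06 between cerebellum and striatum and 0.09 between cortex and striatum, against −0.01, 0.00 and −0.01 for different mice. With mouse as a replicate block, 40, 78 and 79 members were called in the region contrasts cortex against cerebellum, striatum against cerebellum and cortex against striatum.

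Positions and exon lengths came from GENCODE M21 (46488 genes matched), start and promoter sequences from RefSeq on GRCm38.p6. Shared windows were exact matches on either strand to annotated transcripts of other genes, since no genome was given.

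The members and lists were chosen with earlier results of these data known. Members named with values were, by rule, the 4 with the smallest p for genotype in each region, the 4 with the largest and 4 with the smallest log2 difference among those called in each region contrast, the 3 with the smallest p for litter and for sex, the 5 highest and 5 lowest per kilobase, the 3 most and 3 least variable in each region, the X-linked members, the paralog pairs, ribosomal protein genes outside the naming rule and the 5 genes most like the members in each region. The members not called in a region contrast, and those shifted relative to the family, were named after their values were seen, as were genes named from the lists. Values of 3 genes that these rules name or count are not reported here by gene.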

Additional observations from a re-analysis of the deposited data

Results flagged for a closer look

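The share of reads on ribosomal protein genes in striatum differed between Mbd5+/GT and WT mice in opposite directions in 2 litters. In litter 1 every Mbd5+/GT mouse was below every WT mouse, with a difference of the means of −0.637 percentage points (3 and 3 mice). In litter 2 every Mbd5+/GT mouse was above the single WT mouse, by 0.310 percentage points in the mean (4 mice and 1). This difference of the shares between litters was not tested, and it rests on 1 WT mouse in litter 2. Litter 1 was all female and litter 2 all male, so litter and sex cannot be told apart here. The test for a sample far from the others of its group was applied to 30 groups of 4 to 10 libraries and found 0, where chance alone would be expected to mark about 1 in 20 groups.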

How the results depend on the processing

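Of the member counts that answer a comparison, 115 values under alternatives stayed within 1.5 times the main count and 30 did not. For genotype in striatum (12 nominal members) the count was 6 with no surrogate variable, 40 with terms for litter and sex, 5 without a filter, 4 with at least 10 counts in every library, 70 without litter 2, 6 scaled to the summed members, 7 without the libraries of highest and lowest share and 34 with the number of the title code as a covariate. In cortex (3) it was 5 with 1 surrogate variable fewer and 0 with none, with litter and sex, without a filter, with at least 10 counts, without litter 2, scaled to the members or with the title-code number. In cerebellum (1) it was 0 with no or 1 fewer surrogate variable, with litter and sex, scaled to the members, without the libraries low in markers or with the title-code number. For the genotype effect between regions (0) it was 1 with DESeq2, 1 with DESeq2 size factors, 1 with mouse as a replicate block and 23 without litter 2. The replicate block changed no other count by over 1.5 times. Sex in striatum had 4 members at an adjusted p under 0.05 when litter was left out of the fit, and in cerebellum 79 of 80 members then lay below 0 (median −0.12, against 0.22). Nominal members for litter in cortex (16) numbered 0 with sex left out or scaled to the members, and 8 without the libraries of highest and lowest share. For sex (1, 8 and 5 in cerebellum, cortex and striatum) litter 3 alone gave 2, 1 and 27, no litter term 0, 0 and 56, and leaving out the extreme shares 1, 0 and 31. Between cortex and cerebellum (37) 18 were called in WT mice alone and 59 scaled to the members, and between cortex and striatum (79) 33 scaled to the members. The cause of these changes was not tested.

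Of the named members' values 528 kept direction and call, 6 lost the call, 1 gained it and 16 changed sign. For genotype in cerebellum, Rplp2 turned to 0.00117 with no and 0.0011 with 1 fewer surrogate variable, and Rpl8 to 0.0333 and 0.0335. For sex with litter left out, Rpl6 (−0.0164), Rpl10 (−0.0575), Rpl36a (−0.0676), Rpl39 (−0.20) and Rps4x (−0.0809) in cerebellum and Rpl10 in cortex (−0.0130) changed sign, and the last also without the libraries of highest and lowest share (−0.0450). Scaled to the members, Rpl22 (−0.50) and Rpl15 (−0.45) between striatum and cerebellum, and Rpl7l1 (0.44), Rps15a (0.41) and Rpl22 (0.25) between cortex and striatum changed sign. The alternatives that left out libraries low in markers, left out those of extreme share or used the title-code number, and the test between litters, were chosen after seeing the data.

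Low counts limit Rpl24, Rpl3l, Rpl39l and Rpl10l only. Rpl24 also overlaps another gene and shares most of its windows, in part with that gene. The part of the overlap and the shared windows in its low count was not tested. For Rpl10l, 0 counts allow up to 0.0612 to 0.119 CPM, the level of 3 counts per library.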
